A study of Mus musculus with 193 samples.

Results

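The genes described here are the nuclear-encoded subunits of the mitochondrial respiratory chain and ATP synthase, measured in single mouse testis cells. They were chosen by symbol, with earlier results of these data known. Members are the genes whose symbol starts with Nduf (but not Ndufaf), Uqcr, Cox4, Cox5, Cox6, Cox7, Cox8 or Atp5, together with Sdha, Sdhb, Sdhc, Sdhd, Cyc1 and Cycs, without pseudogene entries ending in -ps and a digit. This gave 88 of the 19557 genes in the table. By complex there were 38 genes for complex I, 4 for complex II, 9 for complex III, 1 for cytochrome c, 19 for complex IV and 17 for complex V. The symbol rule also took in 3 genes that are not subunits: Cox4nb, now called Emc8 and part of an endoplasmic reticulum complex, and Atp5s and Atp5sl, which are named for ATP synthase and are kept with complex V. Ndufa4 is counted with complex I by its symbol, although its protein is known as a subunit of complex IV.

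The respiratory chain moves electrons from NADH and succinate to oxygen and pumps protons across the inner mitochondrial membrane, and ATP synthase uses the proton gradient to make ATP. Complex I oxidises NADH, complex II oxidises succinate and is also an enzyme of the citric acid cycle, complex III passes electrons to the small carrier cytochrome c, and complex IV reduces oxygen. Each complex except complex II joins subunits encoded in the nucleus with subunits encoded in mitochondrial DNA. Several nuclear subunits have tissue variants, among them forms of complex IV known from testis, heart and skeletal muscle. Spermatogonial stem cells, from which sperm are made throughout adult life, arise from prospermatogonia in the first days after birth.

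All cells were sorted from digested testes by the green fluorescence of an Id4-eGFP reporter, which marks germ cells that include spermatogonial stem cells. There were 71 wild-type cells from postnatal day 3 (WT P3), 69 cells of the same age labelled Rhox10 knockout, and 53 wild-type cells from postnatal day 7 (WT P7). Rhox10 encodes a homeobox transcription factor, and the study asked about a transcription factor in the establishment of spermatogonial stem cells. The labels give neither the strain nor the kind of knockout allele and name no animal. Letters in the sample titles, whose meaning is not given, divide the cells into 7 sets: WT P3 A with 16 cells and B with 55, labelled knockout A with 21, B with 12 and C with 36, and WT P7 A with 12 and B with 41.

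Because each deposited sample is 1 cell and no animal is named, each group counts as 1 sample and no test was made. The level of a gene in a set is the mean over its cells of log2(RPM + 1), where RPM is a gene's reads relative to all reads of the cell. A group's level is the average of its set levels, with equal weight for each set. A difference in level is given with its range over all pairs of sets, 6 pairs for labelled knockout against WT P3 and 4 for WT P7 against WT P3. A gene is called higher or lower in all pairs when that range lies on 1 side of 0. A member counts as measured in a comparison when the mean of its 2 group levels is at least 0.5. Both comparisons use the same WT P3 cells.

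Total reads per cell ranged from 251530 to 10663507, and reads on genes from 25424 to 1373776. All 193 cells had reads of Ddx4 or Dazl, which mark germ cells. In 2 cells, 1 in WT P3 set B and 1 in labelled knockout set A, the summed RPM of 8 Sertoli cell markers exceeded that of 5 germ cell markers. The WT P3 cell had 697.8 RPM of Sertoli against 554.4 RPM of germ cell markers. The labelled knockout cell had 2004.8 against 14.7 RPM, where the median of its set for the germ cell markers was 829.7 RPM. Rhox10, the targeted gene, had levels of 1.78 and 1.49 in the WT P3 sets and of 2.48, 2.62 and 0.83 in the labelled knockout sets (A, B, C), so that its RNA was below the WT P3 levels in set C and above them in the other sets. Which part of the gene the allele removes is not given in the labels, and these cells are therefore called labelled knockout throughout. Id4 had levels of 3.75 and 3.46 in the WT P3 sets, of 1.14, 2.41 and 2.25 in the labelled knockout sets, and of 1.99 and 2.59 in the WT P7 sets. Labelled knockout set A had the lowest Id4 level of the 7 sets, and the counts for the labelled knockout are also given without it.

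RNA of the respiratory chain was present in every cell. Reads of 39 members were found in all 193 cells. The 88 genes together made up a median of 1.55% of the reads on genes in WT P3 set A and 1.54% in set B, 1.27%, 1.50% and 1.66% in labelled knockout sets A, B and C, and 1.67% and 1.70% in WT P7 sets A and B. Between cells of a set this share spread widely, as the plot of summed respiratory chain RNA shows.

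**Figure D1:**
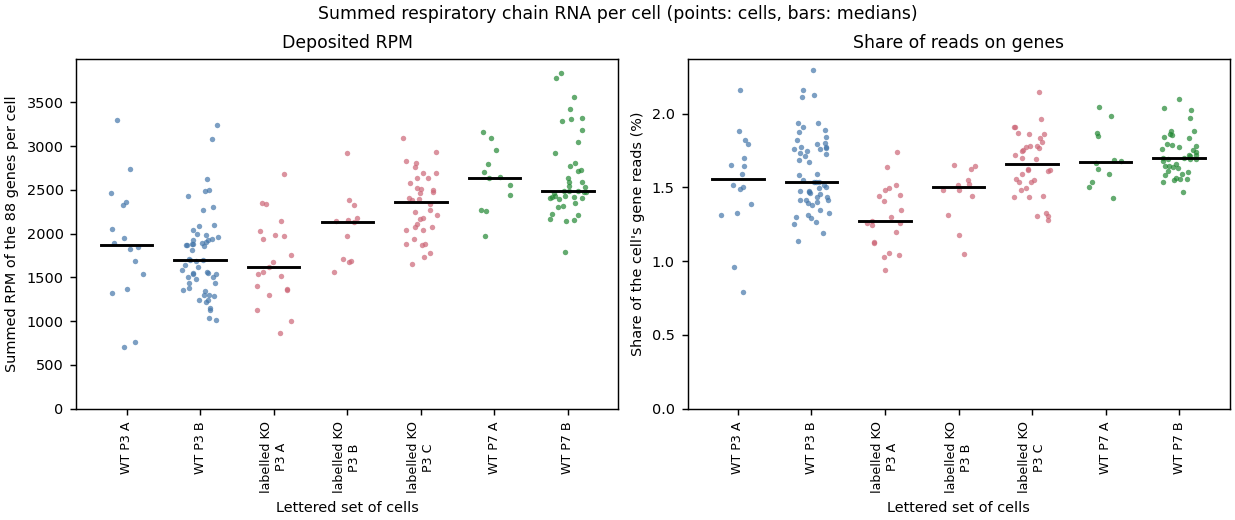
Summed RNA of the 88 genes in each of the 193 cells by lettered set, as deposited RPM (left) and as a share of the cell's reads on genes in percent (right); points are cells, horizontal bars are set medians and colours mark the groups. On the left the WT P7 medians of 2640 and 2487 RPM lie above the WT P3 medians of 1870 and 1695 RPM; on the right the medians of all sets except labelled knockout A lie between 1.50% and 1.70%.

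Levels can be compared between genes only per transcript length, and here lengths were taken from 1 transcript model per gene in the GENCODE M21 annotation. In WT P3 cells the median member had 14.7 RPM per kb of transcript. The highest was Cox4i1, an accessory subunit of complex IV, with 134.7 RPM per kb, and next came Cox6a1 with 86.5, Ndufb9 with 85.8 and Atp5j with 81.3 RPM per kb. Subunits that stand together in 1 complex were not listed at equal values. In complex II, the flavoprotein Sdha had 26, the iron-sulfur protein Sdhb 33.6, and the membrane anchors Sdhd and Sdhc 24.4 and 4.07 RPM per kb. In the catalytic F1 head of ATP synthase, Atp5b had 61.6, Atp5c1 54.8, Atp5a1 44.7, Atp5e 33.6 and Atp5d 16.1 RPM per kb. The catalytic subunit Atp5b and its partner Atp5a1, which form the head in equal numbers, were the 2 members with the highest levels that were not corrected for length, at 6.73 and 6.70 in WT P3.

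**Figure D2:**
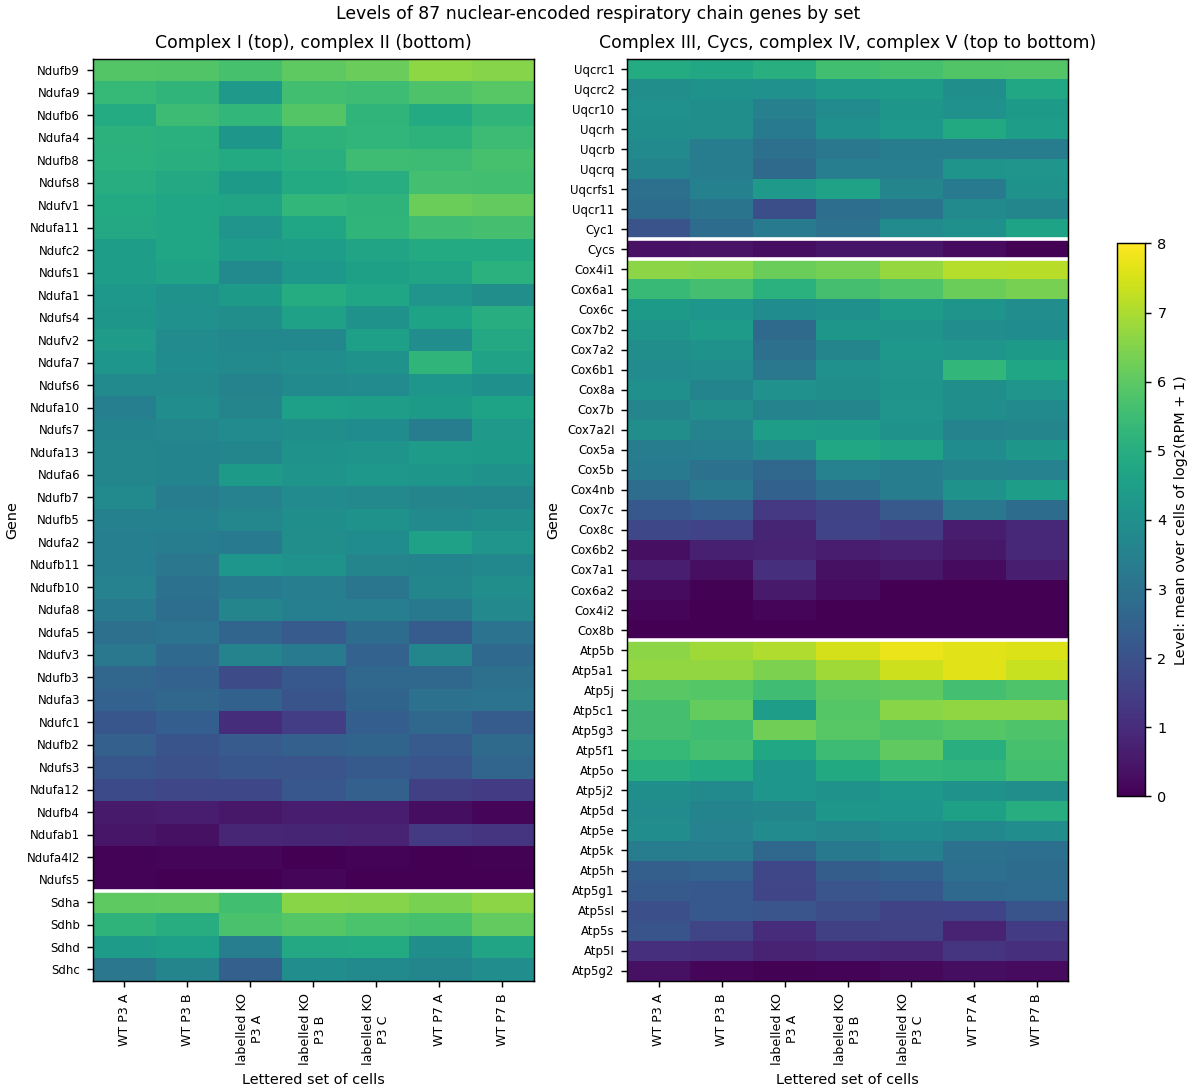
Level of 87 of the 88 genes (rows, grouped by complex and ordered by WT P3 level) in each of the 7 lettered sets (columns); colour gives the mean over cells of log2(RPM + 1), from 0 to 8. Most rows are alike across columns, labelled knockout set A is darker in many rows such as Cox7b2 and Atp5c1, and Cycs and some rows of complexes I, IV and V are near 0 in all sets.

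A group of subunits that every respiring cell needs was listed near 0. Cycs, which encodes the cytochrome c of somatic cells and has a separate testis form in later germ cells, had levels of 0.39 and 0.41 in the WT P3 sets, 0.29, 0.47 and 0.47 in the labelled knockout sets, and 0.25 and 0.06 in the WT P7 sets, with reads in 81 of 193 cells. Ndufs5, an accessory subunit of complex I, had reads in 8 cells and at most 0.966 RPM in any of them. Levels were lower in members that shared nearly all of their coding sequence with other genes. For each member, every stretch of 50 bases in the coding sequence was looked up in the transcripts of all other genes in the annotation. In 7 members over 99% of the coding stretches occurred in another gene: Cycs, Atp5g1, Atp5g2, Atp5l, Cox7c, Ndufab1 and Ndufb4. Their WT P3 levels ranged from 0.25 to 2.3 with a median of 0.59, and 4 of the 7 were below 1. The 44 members that shared no coding stretch had a median level of 3.67, and the 11 that shared up to 10% had a median of 4.06. The 26 members that shared between 10% and 99% had a median of 3.55, close to that of members without sharing. Of these 26, 1 was below 1, namely Ndufs5, which shared 72.5% of its coding stretches with the gene BC002163.

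Over the whole transcript, the genes that shared a stretch with these 7 members included 2 to 12 pseudogenes, 10 of them for Cycs and 12 for Atp5l. The following coding stretches, read 5′ to 3′ on the sense strand of GRCm38, are shown because each is the stretch of its gene found in the most other genes. The Cycs stretch (coding bases 194 to 243, gene at chr6:50562563-50566538, minus strand) occurred in transcripts of 6 other genes, 5 of them pseudogenes. The Atp5l stretch (coding bases 215 to 264, gene at chr9:44912557-44920742, minus strand) occurred in 9 pseudogenes, and the Ndufb4 stretch (coding bases 283 to 332, gene at chr16:37647170-37654453, minus strand) in 3.
Cycs: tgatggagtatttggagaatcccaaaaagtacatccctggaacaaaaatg
Atp5l: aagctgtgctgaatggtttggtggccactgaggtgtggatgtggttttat
Ndufb4: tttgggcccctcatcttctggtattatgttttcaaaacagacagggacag
A read inside such a stretch has more than 1 place of origin. How reads with several origins were counted is not given in the sources used here, and the part of this in the low values was not tested. The levels and differences of these 7 members and of Ndufs5 are therefore uncertain.

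**Figure D3:**
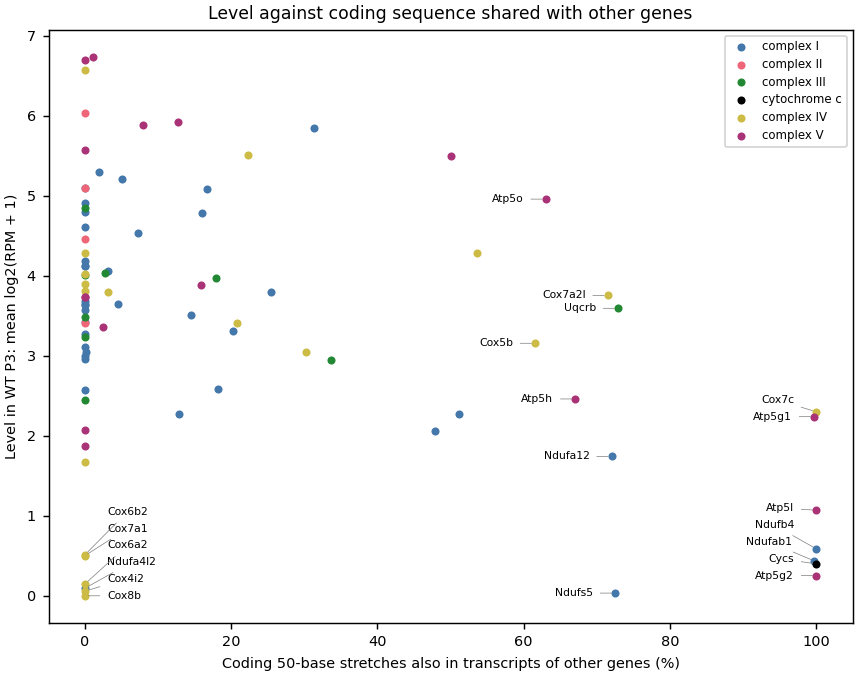
Level in WT P3 cells (mean log2(RPM + 1), vertical axis) against the share of a member's coding 50-base stretches that also occur in transcripts of other genes (percent, horizontal axis); each point is 1 of the 88 genes, coloured by complex. The 7 genes at the right edge all lie at or below a level of 2.3. Of the 7 other genes below a level of 1, 6 lie at 0% and are the paralogues named beside them, and 1 is Ndufs5.

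Promoter windows from RefSeq (GRCm38.p6), running from 250 bases before to 50 bases after the annotated start, were found for 71 of the 88 genes. They were searched on both strands for 3 motifs of factors known for nuclear genes of mitochondria: GCATGCGC for NRF1, CCGGAAGT for ETS factors such as GABP, and AAGATGGC for YY1. The NRF1 letters were in 15.5% of the members' windows, against 6.61% of 7259 windows of expressed genes (average level 0.5 or more) and 2.71% of all 32851 windows. They overlap their own reverse complement, so 1 place can match on both strands. The YY1 letters were in 14.1% of the members' windows, against 5.33% and 2.75%. The ETS letters were in 7.04% of the members' windows, against 9.71% and 3.89%. The YY1 matches had a common place: 9 of 10 began 22 to 38 bases after the start, all on the coding strand, and 7 of the 10 genes were complex I subunits, which make up 33 of the 71 windows. The NRF1 genes included Ndufa6, Ndufa8, Ndufa11, Sdhb, Uqcrc1, Cox6a1, Cycs and Atp5k. As examples, 2 upstream stretches that overlap no annotated exon are given 5′ to 3′ on the gene's strand, with the NRF1 letters in capitals. They lie at chr15:82354341-82354400 (minus strand) and chr9:44920933-44920992 (minus strand).
Ndufa6: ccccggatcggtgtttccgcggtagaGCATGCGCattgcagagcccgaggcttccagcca
Atp5l: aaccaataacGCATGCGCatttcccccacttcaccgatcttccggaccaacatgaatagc
A match is a string of letters, and binding was not measured in these cells.

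Setting P7 beside P3 cells of wild-type mice asks how these genes differ between 2 ages of the first postnatal week. On the deposited RPM scale most respiratory chain genes were higher at P7. Of the 79 members measured, 48 (60.8%) were higher in all 4 pairs and 7 were lower, beside a background over all 9659 genes measured of 32.9% higher and 18.7% lower. The median difference of the members was 0.39 (range over pairs 0.35 to 0.55) and that of all genes 0.10. A difference of at least 1 was reached by 6 members upwards (background 5.66%) and by none downwards (background 2.83%). The summed RPM of the members was 1.51-fold higher at P7 (log2 difference 0.60, pairs 0.57 to 0.63).

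This count depended on the scale. RPM here is relative to a total that includes reads outside the table's genes, and reads on genes were a larger part of it at P7: the medians were 157651 and 146776 RPM in the WT P7 sets and 122502 and 105434 RPM in the WT P3 sets. When each cell was rescaled to its reads on genes, the median difference of all genes moved from 0.10 to -0.14 and that of the members from 0.39 to 0.01. On that scale 27 members were higher in all pairs and 23 lower, with backgrounds of 17.6% and 33.7%. The summed share of reads was still 1.11-fold higher at P7 (log2 difference 0.15, pairs 0.09 to 0.21). Per ERCC spike-in RNA, added in equal amount at lysis, the summed RNA was 1.49-fold higher, with pairs from -0.05 to 1.21 on the log2 scale. A scale set by 3775 genes that are not members and have reads in most cells gave a median difference of -0.0042. Called the same way on each of the 3 scales were 25 members higher (background 16.8%) and 7 lower (background 18.6%), and 3 members, Atp5g3, Atp5l and Ndufa4, were higher in all pairs as deposited and lower in all pairs per reads on genes.

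**Figure D4:**
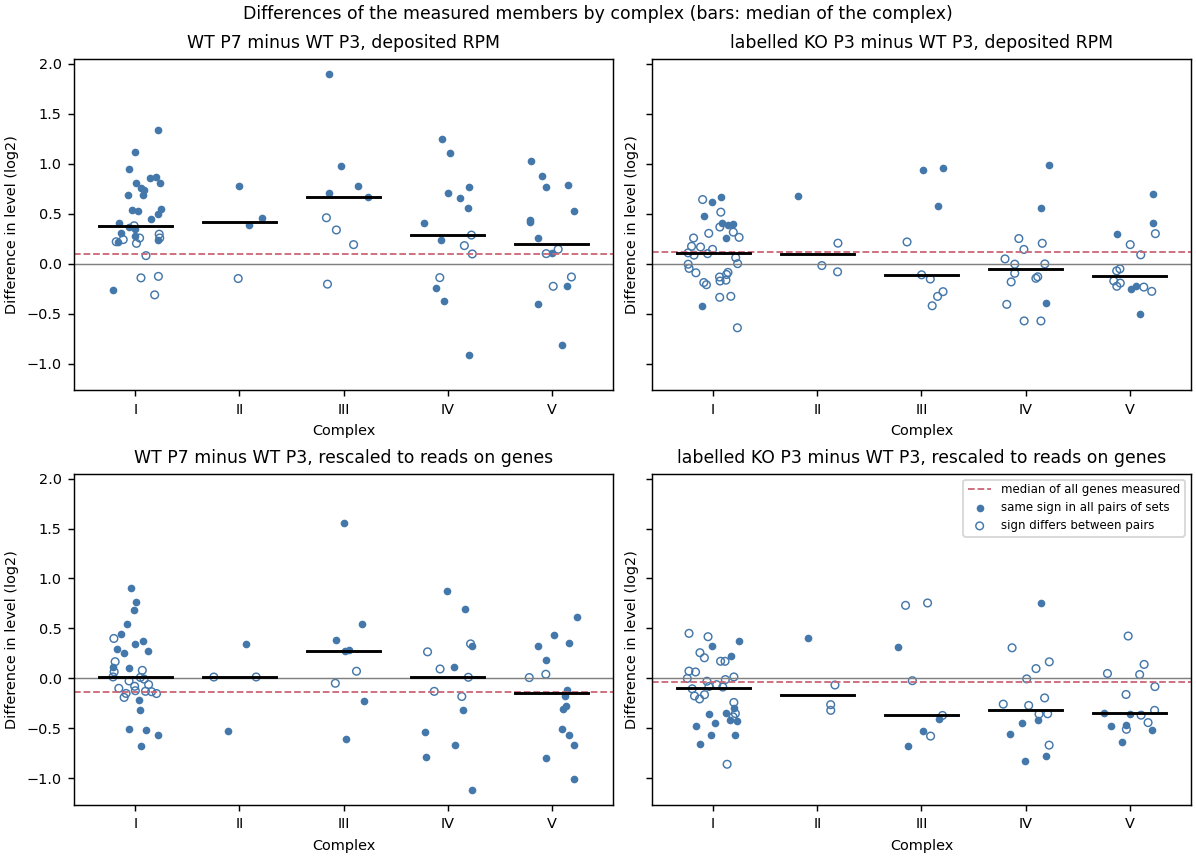
Difference in level (log2) of each measured member, by complex, for WT P7 minus WT P3 (left) and labelled knockout minus WT P3 (right), on the deposited RPM scale (top) and rescaled to reads on genes (bottom); filled points had 1 sign in all pairs of sets, black bars are complex medians and the dashed line is the median of all genes measured. Complex III has the highest median in both left panels, 0.67 and 0.27, and every complex median moves down from the top to the bottom row.

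Complex III, which takes electrons from ubiquinol to cytochrome c, had the highest median difference between the ages, 0.67 as deposited and 0.27 per reads on genes. Its summed RPM was 1.74-fold higher at P7, and its summed share of gene reads 1.28-fold higher (pairs 0.28 to 0.43 on the log2 scale). Cyc1, the cytochrome c1 that hands electrons to cytochrome c, had levels of 2.05 and 2.83 for WT P3 (sets A and B) and of 4.03 and 4.65 in WT P7 sets A and B. Its SD between cells was 1.53 and 1.01 in the WT P3 sets and 1.80 and 1.16 in the WT P7 sets. The sets of the 2 ages did not overlap, and the difference of 1.90 (pairs 1.20 to 2.60) was the largest among the members. Mean Cyc1 RPM was 6.76 in WT P3 and 29.1 in WT P7. Uqcrc1, a core protein of the complex, had levels of 4.92 and 4.79 at P3 and of 5.81 and 5.85 at P7, a difference of 0.98 (0.90 to 1.06). The small subunits Uqcr11 (0.78), Uqcrh (0.71) and Uqcrq (0.67) were also higher in all pairs. The Rieske iron-sulfur protein Uqcrfs1 had levels of 2.96 and 3.50 at P3 and 3.31 and 4.07 at P7, so its sets overlapped. The second core protein Uqcrc2 (0.34, pairs -0.11 to 0.79), Uqcr10 (0.19) and Uqcrb (-0.20) also had pairs on both sides of 0, and Uqcr10 (-0.22) and Uqcrb (-0.61) were lower in all pairs per reads on genes.

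In complex I, 23 of 35 measured members (65.7%) were higher in all pairs at P7 and 1 (2.86%) was lower as deposited. Their median difference was 0.38, and of all genes 32.9% were higher and 18.7% lower. Per reads on genes 12 (34.3%) were higher and 6 (17.1%) lower with a median of 0.01, beside 17.6% and 33.7% of all genes. The core subunits, which hold the flavin and the iron-sulfur clusters, differed among themselves. Ndufv1, which binds NADH and the flavin, had levels of 4.90 and 4.69 at P3 and of 6.20 and 6.07 at P7, a difference of 1.34 (1.17 to 1.51). Ndufv1 and Ndufs8 (0.69, pairs 0.59 to 0.78), which carries iron-sulfur clusters, were higher in all pairs on each of the 3 scales. Ndufs1 was higher in all pairs as deposited (0.35, 0.07 to 0.64) and at -0.06 per reads on genes. Ndufv2, the partner of Ndufv1, had levels of 4.39 and 3.85 at P3 and of 3.92 and 4.84 at P7, with no separation of the ages. Ndufs3 (0.30) and Ndufs7 (0.20) had pairs on both sides of 0.

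Of the 28 accessory complex I genes measured, 19 (67.9%) were higher in all pairs as deposited and 9 (32.1%) per reads on genes. The shares of all genes were 32.9% and 17.6%. Accessory subunits surround the core and are needed to assemble or steady it. Ndufa2 was the highest of them, with levels of 3.47 and 3.38 at P3 and of 4.58 and 4.17 at P7, a difference of 0.95 (0.70 to 1.20). Ndufa7 (0.87), Ndufab1 (0.86), Ndufa10 (0.80), Ndufa11 (0.80), Ndufa13 (0.75) and Ndufb9 (0.73) followed, all higher in all pairs as deposited. The 1 member lower in all pairs was Ndufa12 (-0.26, pairs -0.35 to -0.17), with levels of 1.79 and 1.70 at P3 and 1.53 and 1.44 at P7. Ndufa5, which had the lowest difference of the complex, had levels of 2.95 and 3.05 at P3 and of 2.33 and 3.05 at P7, so that only set A was apart as deposited, and it was lower in all pairs per reads on genes (-0.67).

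In complex II the iron-sulfur protein Sdhb had levels of 5.21 and 4.98 at P3 and of 5.68 and 6.07 at P7, a difference of 0.78 (0.47 to 1.09). The flavoprotein Sdha (0.45, pairs 0.33 to 0.58) and the anchor Sdhc (0.39, pairs 0.01 to 0.77) were higher in all pairs as deposited, and each was at 0.01 per reads on genes. The other anchor, Sdhd, had levels of 4.42 and 4.51 at P3 and of 3.97 and 4.66 at P7, and was lower in all pairs per reads on genes (-0.53).

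In complex IV, 8 of 15 measured members (53.3%) were higher in all pairs at P7 and 3 (20%) were lower as deposited, beside 32.9% and 18.7% of all genes. Per reads on genes 4 (26.7%) were higher and 5 (33.3%) lower, with a median of 0.01, beside 17.6% and 33.7% of all genes. Cox4i1, the member with the most RNA per length, had levels of 6.61 and 6.53 at P3 and of 7.12 and 7.13 at P7, a difference of 0.56 (0.51 to 0.60). Cox6b1, which faces the cytochrome c docking side, had levels of 3.87 and 3.94 at P3 and of 5.29 and 4.74 at P7, a difference of 1.11 (0.81 to 1.42). Cox6a1 (0.77), Cox7c (0.70), Cox5a (0.65), Cox5b (0.41) and Cox7a2 (0.24) were higher in all pairs as deposited. Cox4i1, Cox6a1 and Cox6b1 were the complex IV subunits higher in all pairs on each of the 3 scales. The gene Cox4nb, not a subunit, was at 2.86 and 3.23 at P3 and at 4.11 and 4.48 at P7, a difference of 1.25 (0.88 to 1.62). Cox8c (-0.91, pairs -1.11 to -0.70), Cox7b2 (-0.37, -0.53 to -0.21) and Cox6c (-0.25, -0.43 to -0.06) were lower in all pairs on each scale. Cox8c and Cox7b2 are known as testis forms.

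Complex V is described as its F1 head and its membrane part. Of the 5 F1 subunits, 4 were higher in all pairs at P7, with a median difference of 0.79 as deposited and 0.35 per reads on genes. Of all genes, 32.9% were higher as deposited and 17.6% per reads on genes. Atp5b had levels of 6.61 and 6.85 at P3 and of 7.65 and 7.58 at P7, a difference of 0.88 (0.72 to 1.04). Atp5a1 (0.77, pairs 0.61 to 0.93), Atp5c1 of the central shaft (0.79, 0.56 to 1.03) and Atp5d (1.03, 0.69 to 1.37) were likewise apart, and all 4 were higher in all pairs on each of the 3 scales. The smallest F1 subunit, Atp5e, had levels of 3.92 and 3.55 at P3 and of 3.75 and 3.92 at P7, which overlapped as deposited, and was lower in all pairs per reads on genes (-0.31).

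Of the 9 measured subunits of the membrane-bound Fo part and the stalk, 5 were higher and 2 lower in all pairs as deposited. Their median was 0.15, and of all genes 32.9% were higher and 18.7% lower. Per reads on genes 1 was higher and 6 were lower, with a median of -0.18, beside 17.6% and 33.7% of all genes. Atp5k, of the membrane part, had levels of 3.38 and 3.35 at P3 and of 2.99 and 2.92 at P7, a difference of -0.41 (-0.46 to -0.36). Atp5j, of the peripheral stalk, had levels of 5.95 and 5.90 at P3 and of 5.62 and 5.78 at P7, a difference of -0.22 (-0.33 to -0.12). Atp5f1, also of the stalk, had levels of 5.37 and 5.61 at P3 and of 5.05 and 5.67 at P7, which overlapped as deposited, and was lower in all pairs per reads on genes (-0.57). Whether F1 and the membrane part differ in response was not tested, since each group counts as 1 sample. The non-subunit Atp5s was at 2.07 and 1.68 at P3 and at 0.76 and 1.38 at P7, a difference of -0.81 (-1.31 to -0.31).

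Genes with longer transcripts tended to have higher differences at P7, with a Pearson correlation across the 79 measured members of 0.26 between log length and difference. The points share libraries and depth, so this is a description. The 34 members with transcripts over 1 kb had a median difference of 0.46 and the 22 with the shortest transcripts 0.30. Sertoli cell marker RNA was also lower at P7. The summed RPM of the 8 markers per cell reached 46.6 RPM in WT P3 set A and 697.8 RPM in set B, and it was at 0 in all cells of WT P7 set A, with all 8 markers at 0, and at most 9.47 RPM in set B, with 2 of 8 at 0. Its part in the differences was not tested. Without the 2 cells that had more Sertoli than germ cell marker RNA, 47 members were higher and 7 lower in all pairs (backgrounds 33% and 18.5%). Without WT P3 set B the count lower was 12 of 80 (background 32.5%), and without WT P7 set B it was 13 of 79 (background 38%).

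The paralogous subunits of complexes I, IV and V showed which tissue variants these cells hold. Most forms known from lung, heart or skeletal muscle had reads in few cells. Cox8b had a read in 1 of 193 cells, Cox4i2 in 8 cells and Cox6a2 in 22. Ndufa4l2, listed here as a paralogue of Ndufa4 and not as such a form, had reads in 31 cells. The exception among the forms of these tissues was Cox7a1, a heart and skeletal muscle form. It had reads in 103 cells at levels from 0.24 in WT P7 set A to 1.08 in labelled knockout set A. Per kb of transcript in WT P3, Cox4i1 had 134.7 RPM against 0.10 for Cox4i2, and Cox7a2 had 25.7 against 1.41 for Cox7a1.

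Of the forms known from testis, Cox7b2 was present in nearly every cell. It had reads in 71 of 71 WT P3 cells, 68 of 69 labelled knockout cells and 53 of 53 WT P7 cells. Per kb it had 38.2 RPM in WT P3, 28.5 in labelled knockout and 29.3 in WT P7 cells, against 15.4, 15.4 and 16.2 for its somatic paralogue Cox7b, an X-linked gene. This excess rests on the transcript models taken, of 542 bases for Cox7b2 and 1001 for Cox7b. Not corrected for length, the group levels were 4.28, 3.71 and 3.91 for Cox7b2 and 3.80, 3.80 and 3.90 for Cox7b. The Cox7b2 levels of 4.14 and 4.42 in the WT P3 sets lay above the 3.93 and 3.89 of the WT P7 sets. In labelled knockout cells it had a level of 2.76 in set A and of 4.24 and 4.13 in sets B and C.

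Cox8c was lower in abundance and differed with age. It had levels of 1.72 and 1.62 in the WT P3 sets, 0.84, 1.61 and 1.38 in the labelled knockout sets, and 0.61 and 0.91 in the WT P7 sets. It was detected in 90.1% of WT P3 cells (exact 95% interval 80.7 to 95.9), 71.0% of labelled knockout cells (58.8 to 81.3) and 58.5% of WT P7 cells (44.1 to 71.9), and the intervals cover counting error only. With every cell thinned to 100000 reads on genes, which left out 5 WT P3 cells, the shares were 71.2%, 59.4% and 43.4%. Per kb its somatic paralogue Cox8a had 25.5 RPM in WT P3, 31.3 in labelled knockout and 34.6 in WT P7 cells, against 6.30, 5.21 and 2.42 for Cox8c. The third testis form, Cox6b2, was near its floor with 95 of 193 cells and levels from 0.33 to 0.88, against 3.20 to 5.29 for Cox6b1.

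Of the 3 genes for the ring subunit of ATP synthase, which encode the same mature protein, Atp5g3 had the highest value. Per kb in WT P3 it had 70.8 RPM, against 0.94 for Atp5g1 and 0.38 for Atp5g2, both among the members whose coding stretches are shared with pseudogenes. The transcript models taken were 714 bases for Atp5g3, 4715 for Atp5g1 and 731 for Atp5g2, so the value of Atp5g1 depends on its long model. Not corrected for length, the WT P3 levels of Atp5g1 and Atp5g2 were 2.24 and 0.25. The level of Atp5g3 was 5.63 and 5.53 in the WT P3 sets, 6.28, 5.92 and 5.76 in the labelled knockout sets and 5.88 and 5.79 in the WT P7 sets.

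**Figure D5:**
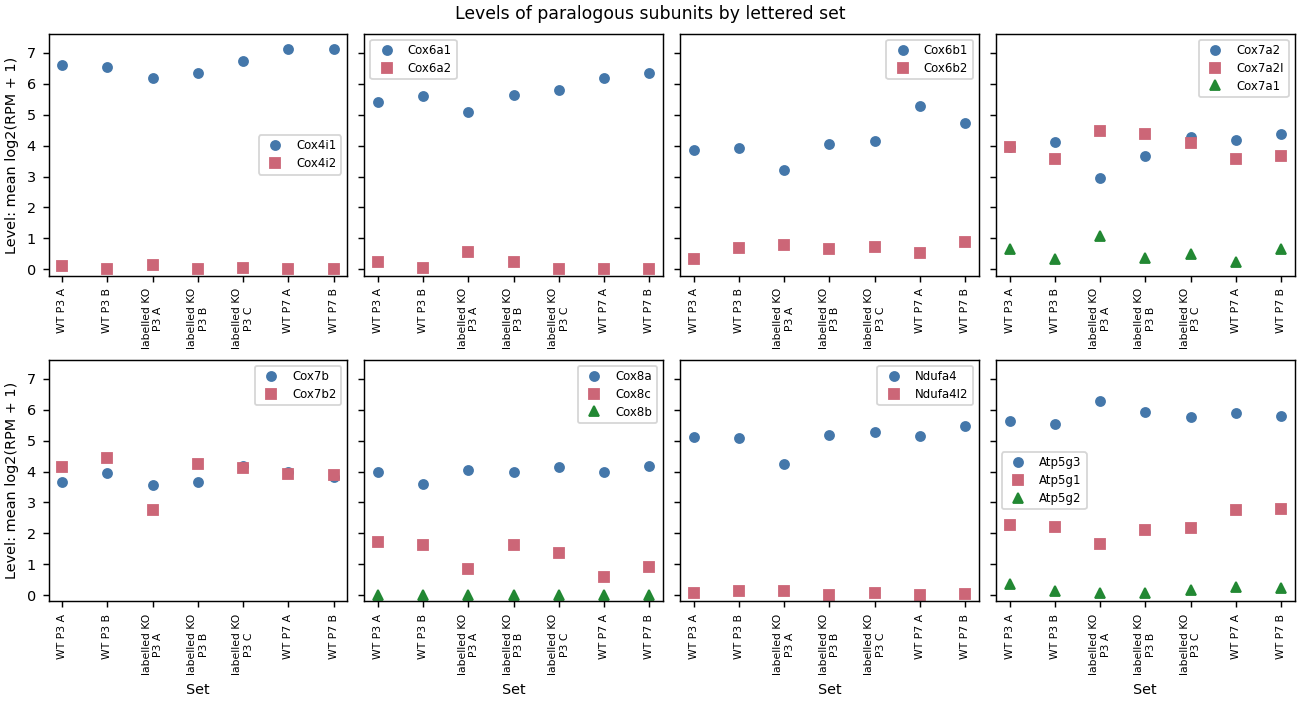
Levels (mean log2(RPM + 1), vertical axis) of paralogous subunits in each of the 7 lettered sets (horizontal axis), 1 panel per family; each point is a set mean. Cox7b2 lies between 3.89 and 4.42 in every set except labelled knockout A, where it is at 2.76, while Cox7b lies between 3.58 and 4.17, and Cox8c is lower in both WT P7 sets, at 0.61 and 0.91, than in the WT P3 sets.

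The comparison of labelled knockout with WT P3 cells asks what goes with the label at 1 age. The share of members called was near that of all genes as deposited, and on both other scales more members than genes overall were lower. Of the 81 members measured, as deposited, 16 (19.8%) were higher in all 6 pairs and 5 (6.17%) were lower, beside backgrounds of 16.4% and 5.78% over all 10147 genes measured. None reached a difference of at least 1 in either direction (backgrounds 1.04% higher and 0.522% lower). The median difference was -0.0015 (pairs -0.24 to 0.23), that of all genes 0.12. By complex the medians were 0.11 for I, 0.09 for II, -0.11 for III, -0.05 for IV and -0.12 for V, each with pairs on both sides of 0. Rescaled to reads on genes the split turned, with 6 members higher and 24 lower in all pairs (backgrounds 8.53% and 12.9%) and a median of -0.24, while the median of all genes moved from 0.12 to -0.04. On the scale of stably detected genes 11 were higher and 24 lower (29.6%, against 11.2% of all genes), with a median of -0.15. Called the same way on each of the 3 scales were 6 members higher (7.41%, background 8.13%) and 5 lower (6.17%, background 5.35%). Both shares were near those of all genes.

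The members higher in all pairs on each of the 3 scales, whose share was near that of all genes, were Cox5a, Ndufa1, Ndufa6, Ndufab1, Sdhb and Uqcrc1. Cox5a, an accessory subunit on the matrix side of complex IV, had levels of 3.36 and 3.46 in the WT P3 sets and of 3.80, 4.80 and 4.59 in labelled knockout sets A, B and C. Its difference of 0.99 (pairs 0.34 to 1.44) was the highest among the members. Sdhb was at 5.69, 5.89 and 5.74 in the labelled knockout sets against 5.21 and 4.98 in WT P3, a difference of 0.68 (0.48 to 0.91). Ndufa6, an accessory subunit of complex I, was at 4.35, 4.16 and 4.28 against 3.67 and 3.61, a difference of 0.62 (0.48 to 0.75). Uqcrc1 was at 5.04, 5.57 and 5.67 against 4.92 and 4.79, a difference of 0.58 (0.13 to 0.88). Being higher in all pairs means that all 3 labelled knockout sets lay above both WT P3 sets, which holds by definition for each gene named here. Ndufa1 was at 4.35, 4.95 and 4.69 against 4.25 and 4.11, a difference of 0.48 (0.10 to 0.84), and was at 4.17 and 3.94 in WT P7. Ndufab1, one of the genes with shared coding sequence, had a difference of 0.38 (0.27 to 0.48).

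Others were higher in all pairs as deposited but not on all 3 scales. Uqcrfs1, the Rieske protein, was at 4.31, 4.62 and 3.64 in the labelled knockout sets (difference 0.96, pairs 0.13 to 1.67). Cyc1 was at 3.31, 2.99 and 3.86 (difference 0.94, pairs 0.15 to 1.80), between the WT P3 and WT P7 levels. Atp5b was at 7.04, 7.49 and 7.76 (0.70, pairs 0.19 to 1.15) and Ndufb11 at 4.20, 4.12 and 3.63 (0.67, pairs 0.18 to 1.03). Of the remaining core genes, Ndufs7 was higher in all pairs (0.26, 0.15 to 0.37). Ndufv1 (0.26), Sdha (0.21), Uqcrc2 (0.22), Cox4i1 (-0.15), Cox5b (0.05), Atp5a1 (0.19), Atp5d (0.30) and Atp5e (0.09) had pairs on both sides of 0.

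The 5 members lower in all pairs were Ndufa5, Cox8c, Atp5g1, Atp5l and Atp5s. Ndufa5, an accessory subunit of the arm of complex I that reaches into the matrix, was at 2.60, 2.3 and 2.82 against 2.95 and 3.05 (-0.43, pairs -0.75 to -0.12). Atp5g1 (-0.25, pairs -0.61 to -0.01) and Atp5l (-0.22, pairs -0.33 to -0.12) are among the genes with shared coding sequence. Atp5s, which is not a subunit, was at 1.01, 1.53 and 1.58 against 2.07 and 1.68 (-0.51, pairs -1.06 to -0.11) and was the lowest of the genes kept with complex V. The lowest differences in complexes I to IV, Ndufc1 (-0.64), Sdhd (-0.08), Uqcrb (-0.42) and Cox7c (-0.57), had pairs on both sides of 0.

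Labelled knockout set A was low in part of the members. Its levels were the lowest of the 5 P3 sets for Atp5c1 (4.46, against 5.65 to 6.58 in the other P3 sets), Sdhd (3.43 against 4.42 to 4.90), Sdhc (2.44 against 3.16 to 3.94), Ndufa9 (4.30 against 5.23 to 5.58) and Cox7b2 (2.76 against 4.13 to 4.42), genes picked because set A was low in them. Set A also had less RNA of cell division genes: the median summed RPM of 19 G2/M genes was 125.7 per cell, against 575.8 and 693.1 in the other labelled knockout sets and 349.6 and 457.2 for WT P3. Its Sertoli marker RNA was higher, with a median of 25.6 RPM per cell, against 2.72 for B, 0.705 for C, and 10.8 and 1.19 for the WT P3 sets, and none of the 8 markers was at 0 in all its cells. The part of either in the member levels was not tested.

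Without set A, 36 of 80 members were higher and 6 lower in all remaining pairs, beside backgrounds of 36.4% and 9.41%, and the median difference was 0.20, and that of all genes was also 0.20. Without set C the count lower was 22 of 81 (background 12.1%), without WT P3 set A 25 were higher and 13 lower (backgrounds 29.1% and 11.1%), and without WT P3 set B 10 were lower (background 17.3%). Without the 2 cells that had more Sertoli than germ cell marker RNA, 16 were higher and 4 lower (backgrounds 16.9% and 5.68%).

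Across single cells the correlations between complexes I, IV and V were above 0 in every set. In WT P7 set B they were weak on the scale of reads on genes, from 0.098 to 0.19. Within each of the 7 sets, Pearson's r between the summed log2 RPM of complexes I and IV ranged from 0.65 to 0.92 (median 0.84), and between I and V from 0.49 to 0.89 (median 0.70). On the scale of reads on genes, r for I and IV ranged from 0.19 to 0.79 (median 0.69). For I and V it ranged from 0.10 to 0.76 (median 0.68), and for IV and V from 0.098 to 0.83 (median 0.55). The lowest values of these pairs were in the 41 cells of WT P7 set B. For complex II, with 4 genes, the medians on that scale were 0.29 with I, 0.28 with III, 0.18 with IV and 0.22 with V, and the lowest values, all in the 12 cells of WT P7 set A, were -0.59, -0.51, -0.38 and -0.21. For I and III r ranged from -0.05 to 0.65 on that scale. For complex III with IV (0.06 to 0.76) and with V (0.15 to 0.68) r was above 0 in every set, though close to 0 at the low end. Between the summed share of the chain and log total reads, r ranged from -0.27 to 0.29 over the sets, and with the mean level of G2/M genes from -0.16 to 0.41. Cells of a set share a scaling and a source, so these are descriptions.

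Other genes of mitochondrial energy metabolism were set beside the members. These lists are read against the shares of all genes given for each comparison, at P7 32.9% higher and 18.7% lower as deposited and 17.6% and 33.7% per reads on genes. The mitochondrial ribosome, which makes the subunits encoded in mitochondrial DNA, had 40 of 75 measured genes higher and 6 lower in all pairs at P7 as deposited (median 0.34), and 20 higher and 18 lower per reads on genes (median 0.03). Mrpl2 was the highest, at 2.79 and 3.16 in WT P3 and 4.51 and 4.62 in WT P7 (difference 1.59), and Mrpl32 the lowest (-0.66). For the citric acid cycle the counts were 9 and 3 of 18 (median 0.51), and 6 and 5 per reads on genes (median 0.17). Idh3a, of NAD-dependent isocitrate dehydrogenase, had the lowest difference, at 4.56 and 4.17 in WT P3 and 2.76 and 3.42 in WT P7 (-1.27, pairs -1.80 to -0.75).

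Of the assembly factors of the complexes, 14 of 37 (37.8%) were higher at P7 and 8 (21.6%) lower, near the shares of all genes, as were the 7 (18.9%) and 10 (27%) per reads on genes. Surf1, an assembly factor of complex IV, was at 1.075 and 1.32 in WT P3 and at 2.39 and 2.38 in WT P7, and Sdhaf2, which helps attach flavin to Sdha, was lower (-0.87, pairs -1.39 to -0.35). Among carriers and porins, 3 of 8 were higher and 3 lower, against 1 and 5 per reads on genes. Atpif1, an inhibitor of ATP hydrolysis by ATP synthase, was at 4.56 in both WT P3 sets and at 5.44 and 5.39 in the WT P7 sets. The outer membrane porin Vdac1 was at 1.83 and 1.51 in WT P3 and at 0.50 and 0.93 in WT P7, and Slc25a4, which exchanges ADP for ATP, at 4.97 and 5.13 and at 4.12 and 4.10.

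Regulators of mitochondrial biogenesis had 4 of 14 higher (28.6%, below the share of all genes) and 0 lower in all pairs at P7, against 2 and 1 per reads on genes. Pprc1, a coactivator, was at 3.88 and 3.92 in WT P3 and at 5.02 and 5.06 in WT P7 (1.14, pairs 1.10 to 1.17). Nrf1 (0.47, pairs -0.36 to 1.29) and Gabpa (-0.62, pairs -1.42 to 0.18) had pairs on both sides of 0. Glycolysis had 9 of 17 genes higher and 5 lower (median 0.31), against 8 and 6 per reads on genes, from Gpi1 (1.22, pairs 1.03 to 1.42) to Ldhb (-1.64, pairs -2.08 to -1.21).

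Between labelled knockout and WT P3, where 16.4% of all genes were higher and 5.78% lower as deposited and 8.53% and 12.9% per reads on genes, 5 of 18 citric acid cycle genes were higher and 0 lower in all pairs (median 0.34), against 3 and 0 per reads on genes. Dlst, of the 2-oxoglutarate dehydrogenase complex, was at 3.09, 3.11 and 3.10 in the labelled knockout sets against 1.92 and 2.04 in WT P3 (1.12, pairs 1.05 to 1.18), and at 3.04 and 2.91 in WT P7. Of 39 assembly factors, 10 (25.6%) were higher and 2 (5.13%) lower (6 and 4 per reads on genes), led by Cox18 at 2.71, 1.80 and 2.3 against 1.31 and 1.36. The mitochondrial ribosome had 15 of 75 (20%) higher and 3 lower, near the shares of all genes (7 and 13 per reads on genes). Of 8 carriers and porins, 1 was higher and 1 lower in all pairs as deposited. Atpif1 was the lower one, at 3.06, 3.96 and 4.55 (-0.70, pairs -1.50 to -0.01), and Slc25a4 the higher one, at 5.94, 5.34 and 5.36. Per reads on genes and on stably detected genes 0 of the carriers and porins were higher and 2 lower, so the call of Slc25a4 held only as deposited. Of 15 biogenesis regulators 4 were higher and 0 lower as deposited, and 0 and 1 per reads on genes. Of 17 glycolysis genes 3 (17.6%) were higher and 2 lower as deposited.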

How the data were processed

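Cells were captured on a Fluidigm C1 chip, with SMARTer cDNA, ERCC spike-in RNA and Nextera XT libraries, per the labels' protocols. Build mm10, HTSeq 0.6.1 and STAR 2.3.0 are listed in the submitters' processing notes. Neither the annotation nor the handling of reads with several alignments is stated there. The table the authors deposited is named as TPM, but its values are RPM: in every cell they are whole multiples of 1 step, for at least 99.99% of values within 0.001 RPM, so they carry no length term. The planned measures, written for TPM, were kept.

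The 84 ERCC rows and Rn45s were kept out of gene comparisons. Levels, differences and pairs of sets are defined in the report, with a pseudocount of 1. No count test was run, since each group is 1 sample. The difference of set means was tried on simulated cells with known fold changes. Those cells had no offsets between lettered sets, so they cannot show how often the all-pairs call errs in these data. The members and gene lists were chosen with earlier results of these data known. Named genes are the core subunits, the paralogue families, the 8 highest and 8 lowest per comparison (mean level of at least 2, 1 sign in all pairs), the highest and lowest of each complex and companion list, and Rhox10 and Id4. Genes named for detection, shared sequence, motifs or set A were chosen after their values were seen. Subunits encoded in mitochondrial DNA were not analysed here, and 2 genes the rule names are not reported here. Coordinates and lengths are from GENCODE M21 (GRCm38, the same assembly as mm10). Python 3.11.15, numpy 2.4.6 and pandas 2.3.3 were used.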

Additional observations from a re-analysis of the deposited data

How the results depend on the processing

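Alternatives were another pseudocount, 2 other scales, logs of set means, equal weight of cells, other floors and leaving out each lettered set. Leaving out the 2 cells with more Sertoli than germ cell marker RNA was added after seeing the data. It gave 47 higher and 7 lower at P7 (backgrounds 33% and 18.5%), and 16 and 4 for the labelled knockout (backgrounds 16.9% and 5.68%). For WT P7 minus WT P3 the median difference of the members, 0.39, was 0.26 with a pseudocount of 10, 0.011 per reads on genes, -0.0042 on stably detected genes and 0.49 with cells weighted equally, and from 0.33 to 0.52 with each set left out. The 48 members higher in all pairs (background 32.9%) became 27 per reads on genes (17.6%) and on stably detected genes (17.4%). With a set left out they became 52 to 61, while the background rose to between 41.6% and 52.8%. The 7 lower (background 18.7%) became 4 with a pseudocount of 10 (background 9.24%) or a floor of 2 (13.1%). They became 23 per reads on genes (33.7%), 25 on stably detected genes (34.6%) and 12 with no filter (23%). With a set left out they became 9 to 13, with backgrounds from 25% to 38%. Among complex medians, V was -0.15 per reads on genes and -0.16 on stably detected genes, where I was -0.0080, II -0.0019 and IV -0.0034. For labelled knockout minus WT P3 the median was -0.24 per reads on genes, and from -0.076 to 0.20 with a set left out. The 16 higher (background 16.4%) became 6 per reads on genes (8.53%). With a set left out they became 17 to 36, with backgrounds from 19.9% to 36.4%. The 5 lower (background 5.78%) became 2 with a pseudocount of 10 (background 3.88%) or a floor of 2 (4.9%). They became 24 per reads on genes (12.9%) and on stably detected genes (11.2%). With a set left out they became 6 to 22, with backgrounds from 9.41% to 17.3%. For the moves under the other scales and floors the cause was not tested; with a set left out there are fewer pairs to meet. No paired analysis was possible because each group counts as 1 sample and no result comes from a test. Reads on genes, down to 25424 in a cell, limit what can be said of members near 0.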
